A study of Solanum lycopersicum with 8 samples.

Results

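Red ripe fruit of the tomato accession AV was set against red ripe fruit of 3 other tomato accessions, TM, SK and RJ. The AV fruit array was the 1 array with that title among the 8 arrays of the study, and the 3 other fruit arrays served as its comparison. The study profiled whole red ripe fruit and whole mature leaf of these 4 accessions, with 1 array for each tissue of each accession. The submitters state that the accessions differ in the course of maturity and in the carotenoids of their ripe fruit. AV was obtained from Hyderabad, TM from Kashmir, SK from Chatha and RJ from Rajouri. No treatment is given for any group. Total RNA was labelled with Cy3 and hybridised to one-colour Agilent arrays of tomato probes.

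Tomato is a climacteric fruit, in which a burst of ethylene made from ACC by ACC synthases and ACC oxidases accompanies ripening. The transcription factors RIN, a MADS-box protein, and NOR, a NAC protein, are required for normal ripening, and mutants of either gene have fruit that stay firm and pale. Ripening involves lycopene synthesis behind the phytoene synthase Psy1, softening through pectin and hemicellulose enzymes, conversion of sucrose to hexoses, and aroma formation.

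Each value below is a log2 signal relative to the 75th percentile of its array, so that 0 marks a probe at that percentile and 1 unit is a 2-fold step. The difference for a gene is its AV fruit value minus the mean of the TM, SK and RJ fruit values, averaged over its probes. With 1 array per accession there is no replicate error of an accession and no test, and a difference of 2-fold is used as a limit of size only. Accession, plant and time of harvest cannot be told apart. It is not stated if RNA came from 1 plant or from several. Because whole fruit were used, fewer cells that make a transcript and less of that transcript per cell cannot be told apart either. The technical spread is known only within an array: probes spotted more than once had a median SD of 0.08 on the AV fruit array, and of 0.07, 0.08 and 0.08 on the TM, SK and RJ fruit arrays.

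On the AV fruit array 19.2% of the 33750 ordinary probe names were well above background, against 18.8% to 19.9% on the other fruit arrays, and no spot was saturated. The tissue label held. All 8 ripe fruit markers were well above background in AV fruit, as in SK and RJ fruit, while TM fruit lacked PG2. Their summed linear level, relative to the 75th percentile, was 90.2 in AV fruit and 40.8, 35.1 and 46.9 in TM, SK and RJ fruit, against 0.168 to 0.326 on the leaf arrays. Of the 90.2 in AV fruit, 2A11 gave 43.5 and PG2 20.5, so the sum mostly follows these genes. ADH2 and EXP1 were higher in TM fruit (19.09 and 1.18) than in AV fruit (14.05 and 0.894), and the other markers were highest in AV fruit. Leaf markers summed to 0.419 in AV fruit and to 0.430 to 0.734 in the other fruit, with 2 of 5 above background in each, against 20.3 to 29.8 in leaf. The trichome marker MTS1 was above background on no fruit array and on no leaf array, so it gives no reading of trichomes. The seed marker LEA14 stood at 1.00 in AV fruit and at 0.714 to 0.977 in the other fruit. It was also above background on the leaf arrays, at 0.182 in AV leaf and up to 2.51 in TM leaf. LEA14 was thus not particular to seed here, and its level gives no reading of seed content. Markers of dividing cells summed to 0.376 in AV fruit and to 0.361 to 0.485 in the other fruit, with 2 of 5 above background in each. The part of other cell types in the results was not tested. AV and TM fruit were hybridised on the same slide, and SK and RJ fruit on another one.

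Across the 5099 probes well above background on all 4 fruit arrays, more probes were higher in AV fruit than were lower. The difference reached 2-fold upward for 362 probes (7.1% of those measured) and 2-fold downward for 194 probes (3.8%). AV fruit lay above all 3 others in 357 of the 362 and below all 3 in 192 of the 194. At 4-fold there were 54 probes higher and 19 lower. Of 503 further probes measured on these arrays, which the array design labels as controls, 44 were 2-fold higher in AV fruit (8.75%) and 22 were 2-fold lower (4.37%). The same count for the other accessions, each against the mean of the remaining fruit, gave 252 higher and 348 lower for TM, 120 and 151 for SK, and 32 and 44 for RJ. Those counts share arrays with the AV count.

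The balance of higher over lower probes depended on the scaling, while the presence of both did not. With the 75th percentile, 65.1% of the probes past 2-fold were higher in AV fruit. The share was 54.4% with median scaling (302 higher, 253 lower), 51.7% with quantile normalization (276 and 258), 55.5% in the deposited log2 values (309 and 248) and 75.8% with scaling on 3 spike-in probes (471 and 150). The median difference of all probes was 0.06, and spike-in scaling moved it to 0.18. Probes past 2-fold were less frequent among dim probes, at 2.75% higher and 0.627% lower among the 1275 dimmest, against 9.57% and 6.12% among the 1275 brightest.

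**Figure D1:**
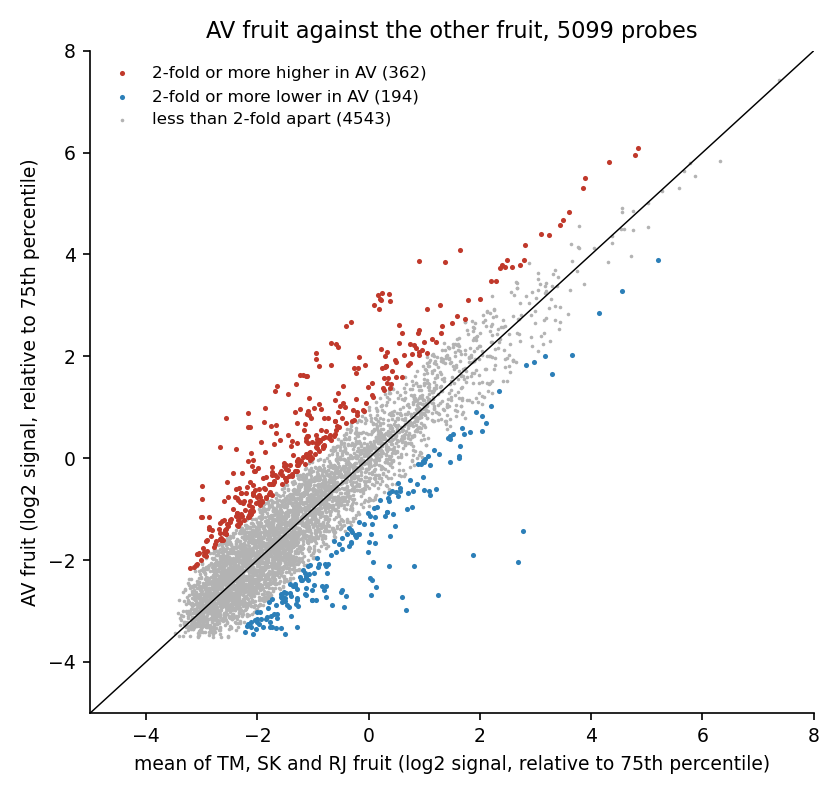
Log2 signal of each probe in AV fruit (vertical axis) against the mean of TM, SK and RJ fruit (horizontal axis), both relative to the 75th percentile of the array. Each point is 1 of 5099 probes, the line marks equal values, red points are the 362 probes at least 2-fold higher in AV fruit and blue points the 194 at least 2-fold lower.

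Gene names could be given to 790 of these probes, for 339 genes. Of them 34 genes were at least 2-fold higher in AV fruit (10.0%) and 13 at least 2-fold lower (3.83%). AV fruit had the highest of the 4 values in 128 genes (37.8%) and the lowest in 97 (28.6%). The median difference over all 339 genes was 0.08. These values over all genes are the scale for the counts of each list below. Most probes past 2-fold have no gene name here: 273 of the 362 higher and 164 of the 194 lower.

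ACO1, ACS2 and ACS4 of ethylene synthesis were at least 2-fold higher in AV fruit. Of 13 genes of that list on the array 7 were measured, 4 of these were at least 2-fold higher in AV fruit and none was 2-fold lower, with a median difference of 1.19. The share of 2-fold higher genes over all 339 was 10.0%. Among the 4 is EFE, whose probes disagree. Without EFE the count was 3 of 6 and the median 0.60, and with EFE averaged over both of its probes the count was 3 of 7 and the median 0.02, settings added after the data were seen. ACO1, an ACC oxidase that forms ethylene in the last step, had a log2 signal of 2.25 in AV fruit, against -2.52 in TM, 0.99 in SK and 0.11 in RJ fruit. AV fruit was thus highest and TM fruit far below the rest. The difference was 2.73, or 6.62-fold, its 8 probes lay between 2.25 and 2.93, and it was 1.70 without the TM array and 3.46 without the SK array.

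ACS2, an ACC synthase of ripening fruit, stood at 0.47 in AV fruit, against -1.37 in TM, -1.81 in SK and -0.82 in RJ fruit, a difference of 1.80 (3.48-fold). For ACS4, the other ACC synthase tied to ripening, AV fruit had -0.75 against -2.26 in TM, -2.47 in SK and -1.10 in RJ fruit. AV and RJ fruit were close for ACS4, and its difference of 1.19 was 0.93 without the SK array. ACS1A, a further ACC synthase, was well above background in AV fruit alone and at least 2.08-fold higher there.

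The gene EFE, an ACC oxidase related to ACO1, gave 2 opposite readings. The probe above background on all fruit arrays had 1.83 in AV fruit, against -2.29 in TM, 0.49 in SK and -0.24 in RJ fruit, a difference of 2.51. The other probe was not well above background in AV fruit, at -5.88, but was so at -3.05 in TM, -2.60 in SK and -3.36 in RJ fruit. No direction is given for EFE, and whether its probes also bind related transcripts was not tested. SAM1, which supplies the methyl donor from which ACC is made, was not highest in AV fruit: it had -0.41 there, 0.85 in TM, -0.64 in SK and 0.65 in RJ fruit. ACS3 and ACO4 differed by 0.02 and -0.29.

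Of 23 genes of ethylene perception and response on the array 13 were measured. Of these 1 was 2-fold higher, none was 2-fold lower and the median difference was 0.00. Over all 339 genes 10.0% were 2-fold higher and 3.83% were 2-fold lower, so the count was near the share of all genes. E8, a ripening gene induced by ethylene, was the 1 of the list past 2-fold. It had -0.39 in AV fruit, against -1.27 in TM, -1.36 in SK and -1.76 in RJ fruit. Its difference of 1.07 was 0.92 without the RJ array. In several other settings, such as quantile normalization (0.99) and against TM fruit alone (0.88), E8 was also under 2-fold. The receptor gene ETR4 differed by 0.52. The ethylene signalling genes EIN2 and EIL3 differed by -0.34 and -0.70, and the response factor ERF2 by -0.91.

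Ripening regulators included some of the clearest differences. Of 14 on the array 8 were measured, 3 were at least 2-fold higher, none was 2-fold lower and the median difference was 0.76. Over all 339 genes 10.0% were 2-fold higher. NOR had 0.48 in AV fruit, against -2.03 in TM, -1.32 in SK and -1.26 in RJ fruit, a difference of 2.02 (4.05-fold over 5 probes). For RIN the value was 1.32 in AV fruit, against -1.37 in TM, -0.22 in SK and 0.15 in RJ fruit, a difference of 1.80 (3.49-fold over 8 probes). In both genes AV fruit stood at least 1.17 above the nearest other fruit.

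TM29, a MADS-box gene of the SEPALLATA group, had -1.22 in AV fruit, against -2.97 in TM, -2.06 in SK and -2.14 in RJ fruit. Its difference of 1.17 was 0.88 without the TM array. VAHOX1, a homeobox gene, differed by 0.91, with AV fruit highest at 0.58 and RJ fruit next at 0.12. FUL1, a MADS-box gene that acts with RIN, was close between AV fruit (1.55) and SK fruit (1.66). ERF6, an ethylene response factor linked to carotenoid levels, went the other way and was lowest in AV fruit, at 1.40 against 2.52 in TM, 2.04 in SK and 2.09 in RJ fruit. Its difference was -0.82, short of 2-fold.

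**Figure D2:**
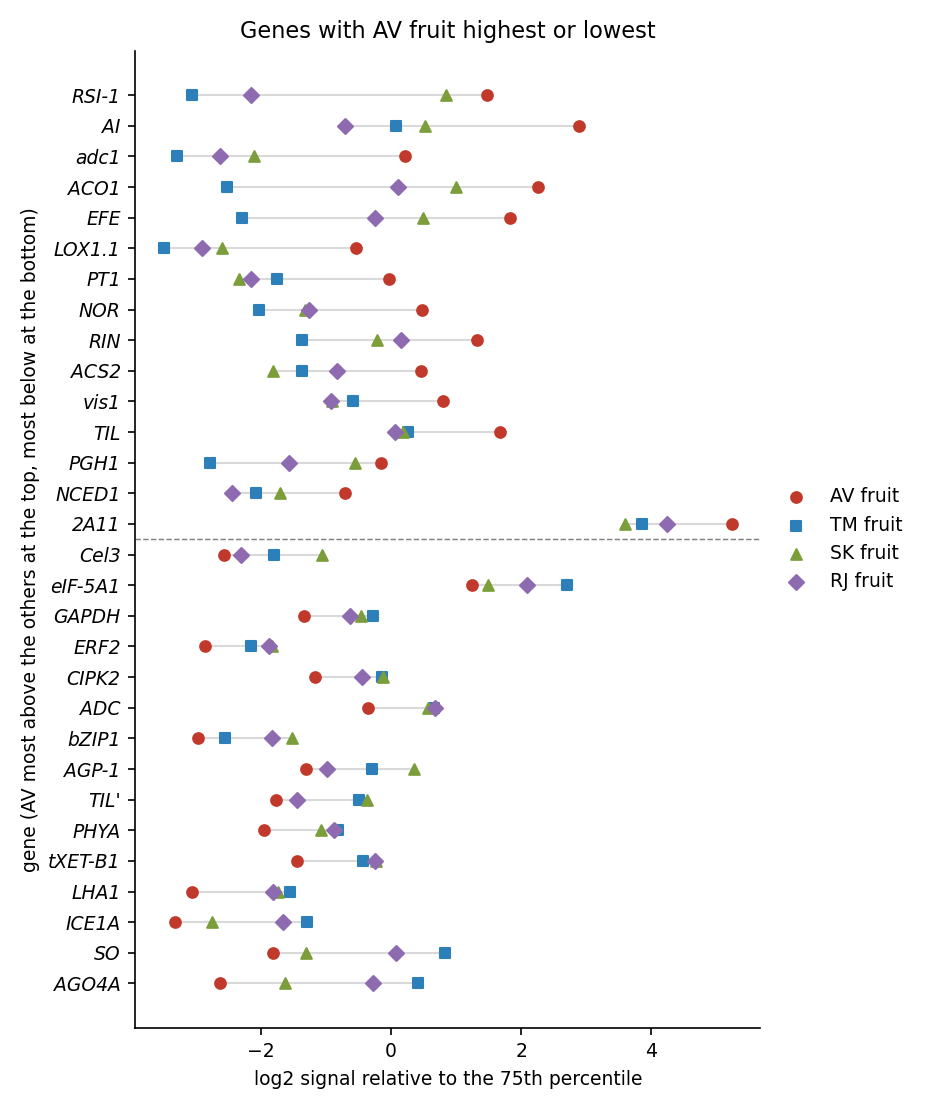
Log2 signal relative to the 75th percentile (horizontal axis) in AV, TM, SK and RJ fruit, 1 symbol per array, for the 15 named genes with the highest and the 15 with the lowest differences (upper and lower block) where AV fruit lay outside the range of the other fruit. TM fruit is often the array furthest from AV fruit, as for ACO1, at 2.25 in AV fruit and -2.52 in TM fruit.

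Of 22 carotenoid pathway genes on the array 9 were measured, 1 of which was at least 2-fold higher in AV fruit and none 2-fold lower, with a median difference of 0.37. A difference above 0 was found in 8 of the 9, and in 190 of all 339 genes (56.0%). Psy1, the fruit phytoene synthase that starts the pathway, had 2.17 in AV fruit, against 0.96 in TM, 1.38 in SK and 1.55 in RJ fruit, a difference of 0.88 (1.83-fold over 13 probes). AV fruit was highest, though under the 2-fold limit in the mean of the probes. The Psy1 probes lay between 0.63 and 1.26, so that some were past the limit. Without the RJ array the difference was 1.00 (2.01-fold). GGPS2, a geranylgeranyl diphosphate synthase that makes the substrate of Psy1, differed by 0.82 and the desaturase PDS by 0.57. DXS, the entry step of the plastid isoprenoid route, was at 0.18 in AV fruit and at 0.39 in SK fruit, with TM fruit lowest at -1.03.

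NCED1, which cleaves carotenoids in abscisic acid synthesis, was the carotenoid list's 1 gene past 2-fold. It had -0.71 in AV fruit, against -2.07 in TM, -1.71 in SK and -2.45 in RJ fruit, a difference of 1.37 (2.59-fold over 3 probes). The other phytoene synthase gene PSY2 was well above background in AV fruit alone and at least 1.64-fold higher there.

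Among softening genes PG2 stood out. PG2, the polygalacturonase that degrades pectin in ripe tomato, was a marker of ripe fruit here and failed the filter because of TM fruit. Its log2 signal was 4.18 in AV fruit, 0.90 in SK fruit and 2.36 in RJ fruit. None of its 6 probes was well above background in TM fruit, where the measured value of -5.88 was as low as the -5.39 to -5.99 of the 4 leaf arrays. AV fruit was at least 235-fold above TM fruit, 9.71-fold above SK fruit and 3.53-fold above RJ fruit. The measured difference was 5.05, and 2.55 without the TM array.

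The genes of this kind that follow, absent from 1 or more fruit arrays, were chosen after their values were seen. Man4, an endo-mannanase of ripening fruit, had 3.07 in AV fruit, against -5.95 in TM, -1.84 in SK and -3.47 in RJ fruit. The Man4 values rest on 1 of its 5 probes. For PE1, a pectin methylesterase, the values over 8 probes were 0.40 in AV fruit, -5.83 in TM, -0.89 in SK and -1.36 in RJ fruit. PME2.1, another pectin methylesterase, had -0.94 in AV fruit, -5.85 in TM, -1.15 in SK and -2.12 in RJ fruit. In all 3 genes TM fruit was not well above background. AV fruit exceeded SK fruit 30.1-fold in Man4, 2.45-fold in PE1 and 1.15-fold in PME2.1, so that PME2.1 hardly separated AV from SK fruit. PMEU1 and MAN2, a further pectin methylesterase and mannanase of the list, were above background on no fruit array. Without the TM array the measured differences of PE1 and PME2.1 were 1.53 and 0.69.

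Of 30 cell wall genes on the array 9 were measured on all 4 fruit arrays, 1 was 2-fold higher, 1 was 2-fold lower and the median difference was 0.01. XTH5, a xyloglucan transglucosylase gene, was higher, at 0.94 in AV fruit, against -0.55 in TM, -0.48 in SK and 0.17 in RJ fruit, a difference of 1.23. Its relative tXET-B1 was lower, at -1.44 in AV fruit, against -0.44 in TM, -0.23 in SK and -0.25 in RJ fruit, a difference of -1.14. EXP1, the expansin of ripe fruit, was about level, with a difference of 0.01. The beta-galactosidase gene TBG3 differed by 0.92 and the endoglucanase gene Cel3 by -0.85. The inhibitor gene Xegip, which acts on xyloglucan endoglucanases, was at least 3.02-fold higher in AV fruit.

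**Figure D3:**
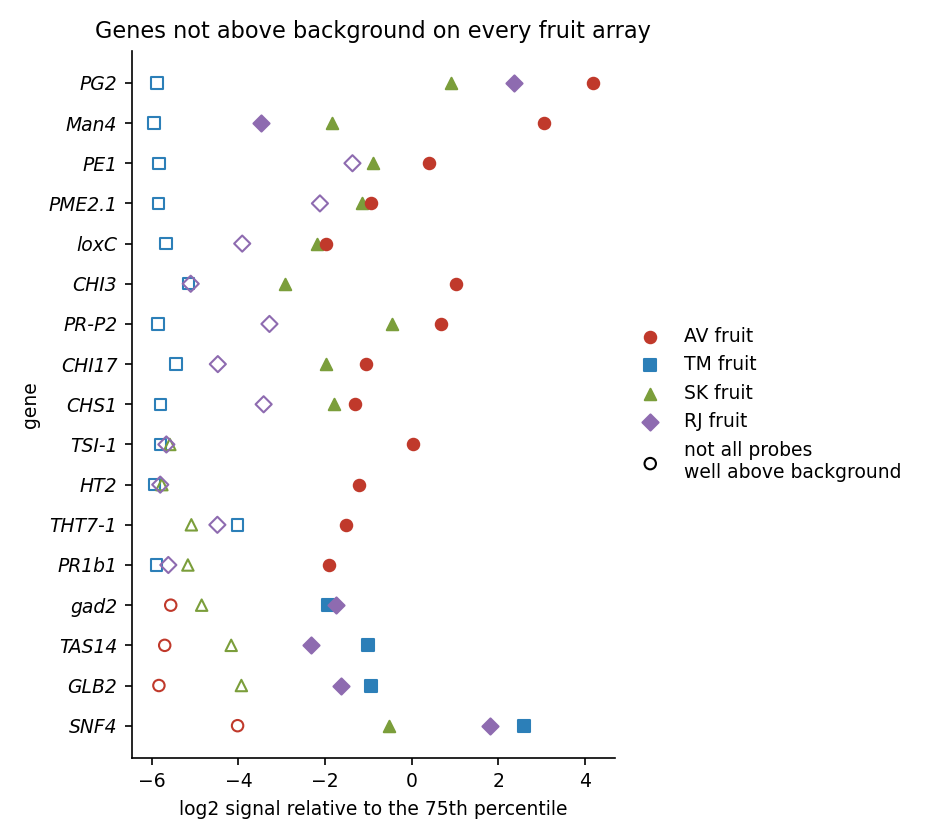
Log2 signal relative to the 75th percentile (horizontal axis) in AV, TM, SK and RJ fruit, for genes not well above background on every fruit array. Filled symbols mark arrays where all probes used for the gene were well above background and open symbols arrays where not all were. PG2 stands at 4.18 in AV fruit and at -5.88, as an open symbol, in TM fruit.

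The lipoxygenase gene LOX1.1 and the allene oxide synthase gene AOS2 were at least 2-fold higher in AV fruit, while another lipoxygenase gene was level. Of 12 genes of the aroma and lipoxygenase list on the array 7 were measured, 2 were at least 2-fold higher, none was 2-fold lower and the median difference was 0.36. Over all 339 genes 10.0% were 2-fold higher. LOX1.1, a lipoxygenase also called loxA, had -0.54 in AV fruit, against -3.50 in TM, -2.60 in SK and -2.91 in RJ fruit, a difference of 2.46 (5.51-fold, 1 probe). AOS2, an allene oxide synthase, had -1.22 in AV fruit, against -2.88 in TM, -1.64 in SK and -2.97 in RJ fruit, a difference of 1.28. AV and SK fruit were the higher pair for AOS2. LOXB, a lipoxygenase gene with 6 probes, was at 0.34 in AV fruit, against -0.50 in TM, 0.48 in SK and 0.45 in RJ fruit, a difference of 0.19.

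The lipoxygenase gene loxC, needed for the fatty acid volatiles of tomato, had -1.98 in AV fruit, -5.67 in TM, -2.18 in SK and -3.91 in RJ fruit, and was also chosen after its values were seen. None of the loxC probes was well above background in TM fruit, and 1 of 3 was in RJ fruit. AV and SK fruit were 1.15-fold apart, and the measured difference of 1.94 was 1.06 without the TM array. ADH2, an alcohol dehydrogenase of aroma formation, was strong in every fruit, at 3.45 in AV fruit, against 3.91 in TM, 3.26 in SK and 3.24 in RJ fruit. AADC1A, an aromatic amino acid decarboxylase that leads to phenylethanol, was at least 2.83-fold higher in AV fruit.

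Sugar and amino acid genes were led by AI, the vacuolar acid invertase that splits sucrose. AI had 2.88 in AV fruit, against 0.08 in TM, 0.52 in SK and -0.71 in RJ fruit, a difference of 2.92 (7.56-fold). AV fruit stood 2.37 above the nearest other fruit. All 8 probes of AI were between 2.49 and 3.06. The list had 21 genes on the array and 8 measured, of which 2 were 2-fold higher, none was 2-fold lower and AV fruit was highest in 7, with a median difference of 0.53. Across all 339 genes AV fruit was highest in 37.8% and 2-fold higher in 10.0%.

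The other gene past 2-fold was hdc, a histidine decarboxylase of ripe fruit, with 1.48 in AV fruit, against 0.62 in TM, -0.02 in SK and 0.81 in RJ fruit. Its difference of 1.01 over 16 probes was at the limit, and was 0.76 without the SK array. The hdc probes lay between 0.61 and 1.60, and the brightest probe gave 0.66. In several other settings, such as median scaling (0.94) and quantile normalization (0.87), hdc was also under 2-fold. The fructokinase gene FRK3 differed by 0.82, the sucrose synthase gene sus3 by 0.58 and the sucrose phosphate synthase gene SPS by 0.41. HT2, a hexose transporter, was above background in AV fruit alone, at -1.22, and at least 5.19-fold higher there.

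**Figure D4:**
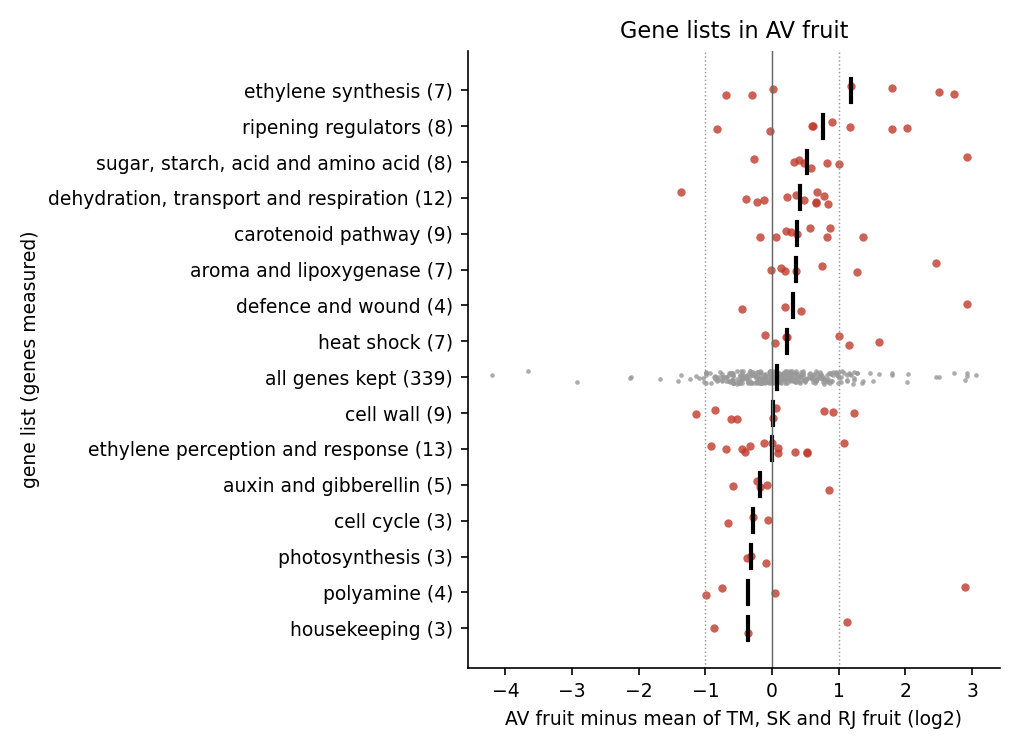
AV fruit minus the mean of TM, SK and RJ fruit (log2, horizontal axis) for each measured gene of the lists (red points) and for all 339 genes kept (grey points). Short black bars are medians and dotted lines mark 2-fold. The median is 1.19 for the ethylene synthesis list (0.60 without EFE), 0.76 for ripening regulators and 0.08 for all genes kept.

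Polyamine genes differed in direction. Of 5 on the array 4 were measured, 1 was 2-fold higher, none was 2-fold lower and the median difference was -0.36. For adc1, listed here among polyamine synthesis genes, AV fruit had 0.22, against -3.29 in TM, -2.11 in SK and -2.64 in RJ fruit. The difference was 2.90 (7.45-fold, 1 probe), with AV fruit 2.32 above the nearest fruit. ADC, an arginine decarboxylase gene, was the reverse, with -0.35 in AV fruit, against 0.67 in TM, 0.57 in SK and 0.67 in RJ fruit, a difference of -0.99. SPDSY, a spermidine synthase gene, was also lowest in AV fruit, at a difference of -0.76.

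Defence and wound genes were seldom above background on all 4 fruit arrays, with 4 of 19 measured, 1 of them 2-fold higher and none 2-fold lower. Their median difference was 0.32, and 10.0% of all 339 genes were 2-fold higher. The 1 past 2-fold was RSI-1, a gene found through its response to auxin in roots. The other measured members, LAPA2, WRKY40 and TPx1, differed by 0.19, 0.44 and -0.45. RSI-1 had 1.47 in AV fruit, against -3.06 in TM, 0.84 in SK and -2.15 in RJ fruit. AV and SK fruit formed a high pair for RSI-1, 0.63 apart, and its difference of 2.93 was 2.13 without the TM array and 4.08 without the SK array.

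TSI-1, a pathogenesis-related gene, was above background in AV fruit alone, at 0.04 against -5.80 in TM, -5.58 in SK and -5.66 in RJ fruit, which makes it at least 12.4-fold higher. PR1b1, which encodes a pathogenesis-related protein of the PR-1 family, was at least 3.23-fold higher on the same terms. THT7-1, which joins tyramine to hydroxycinnamic acids in wound responses, was at least 4.24-fold higher.

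Further defence genes were chosen after their values were seen, and 2 of them were highest in AV fruit with SK fruit next. The chitinase gene CHI3 had 1.02 in AV fruit, against -5.15 in TM, -2.92 in SK and -5.10 in RJ fruit. It was below background in TM and RJ fruit. PR-P2, of the PR-4 family, had 0.67 in AV fruit, against -5.86 in TM, -0.45 in SK and -3.28 in RJ fruit, and its measured difference of 3.86 was 2.53 without the TM array. None of the PR-P2 probes was well above background in TM fruit, and 1 of 3 was in RJ fruit. The chitinase gene CHI9 and the glucanase gene GluB did not have AV fruit on top: GluB was at -2.01 in AV fruit and at -0.66 in RJ fruit, CHI9 at -1.03 in AV fruit and at -0.93 in RJ fruit.

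Chalcone synthases, which start flavonoid synthesis, were not measured on all 4 fruit arrays, and both were below background in TM fruit. CHS1 was below background in RJ fruit too, and AV fruit was at least 4.26-fold above RJ fruit. CHS1 had -1.31 in AV fruit, against -5.79 in TM, -1.80 in SK and -3.42 in RJ fruit. Its measured difference of 2.36 was 1.30 without the TM array. CHS2 was close between AV fruit (-1.27) and SK fruit (-1.15), against -4.81 in TM and -2.003 in RJ fruit. Both were chosen after their values were seen.

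Heat shock genes differed in part. Of 9 on the array 7 were measured, 3 were at least 2-fold higher, none was 2-fold lower and the median difference was 0.23. Over all 339 genes 10.0% were 2-fold higher. vis1, a small heat shock gene linked to juice viscosity, had 0.79 in AV fruit, against -0.59 in TM, -0.91 in SK and -0.92 in RJ fruit, a difference of 1.60. The chaperone gene Hsc70.1 had -0.05 in AV fruit, against -0.64 in TM, -1.88 in SK and -1.10 in RJ fruit, and its difference of 1.15 was 0.81 without the SK array. HSP21, a plastid small heat shock gene, was at the limit with 1.01, and under it without TM (0.82) or RJ fruit (0.98). HSP17-6, HSP17.8 and HSP70 differed by 0.21, 0.04 and 0.23.

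Other genes clearly higher in AV fruit had varied roles. The fruit protein gene 2A11 had 5.24 in AV fruit, against 3.86 in TM, 3.60 in SK and 4.24 in RJ fruit, a difference of 1.34 over 6 probes. PT1, a phosphate transporter, had -0.04 in AV fruit, against -1.75 in TM, -2.33 in SK and -2.16 in RJ fruit, a difference of 2.04 (4.12-fold). TIL, a lipocalin gene, had 1.68 in AV fruit, against 0.26 in TM, 0.19 in SK and 0.06 in RJ fruit, a difference of 1.51. These 3 genes had the other fruit close together and AV fruit at least 1.01 above them. The like-named gene TIL' went the other way and was lowest in AV fruit, with a difference of -0.996 on 1 probe. PGH1, the glycolytic enzyme enolase, and GAPC2, a glyceraldehyde phosphate dehydrogenase, rested on TM fruit: their differences of 1.48 and 1.12 were 0.90 and 0.59 without it.

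The genes lower in AV fruit were fewer, and several of them had SK fruit nearest. AGO4A, an argonaute of the pathway that directs DNA methylation by small RNA, had -2.63 in AV fruit, against 0.42 in TM, -1.63 in SK and -0.28 in RJ fruit, a difference of -2.14 (others 4.40-fold higher, 1 probe). SO had -1.81 in AV fruit, against 0.82 in TM, -1.31 in SK and 0.08 in RJ fruit, a difference of -1.68 over 4 probes, or -2.27 without the SK array. LHA1, a plasma membrane proton pump, had -3.07 in AV fruit, against -1.56 in TM, -1.73 in SK and -1.82 in RJ fruit, a difference of -1.36. In LHA1 the 3 other fruit were alike, whereas in AGO4A and SO the others were spread over more than 2 units.

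ICE1A, named after a regulator of cold responses, differed by -1.42 and the phytochrome A gene PHYA by -1.02, or -0.97 without the TM array. The housekeeping gene GAPDH, another glyceraldehyde phosphate dehydrogenase, was lowest in AV fruit with a difference of -0.88, opposite to GAPC2. SNF4, which encodes a subunit of the SnRK1 energy-sensing kinase, had the largest bound downward. It was not well above background in AV fruit, at -4.02, against 2.60 in TM, -0.52 in SK and 1.82 in RJ fruit, which makes AV fruit at least 28.4-fold lower on 1 probe. The bound was 18.1-fold without the TM array and 53.3-fold without the SK array, and 8.03-fold against SK fruit alone.

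A further 4 genes, some of them known from water or oxygen stress, were present in TM fruit and below background in both AV and SK fruit. They were chosen after the values were seen. The dehydrin gene TAS14 had -5.70 in AV fruit, against -0.998 in TM, -4.16 in SK and -2.33 in RJ fruit. GLB2, a plant haemoglobin, had -5.83 in AV fruit, against -0.93 in TM, -3.93 in SK and -1.63 in RJ fruit. gad2, a symbol with the synonym GAME11, had -5.56 in AV fruit, against -1.93 in TM, -4.85 in SK and -1.74 in RJ fruit. AV fruit was thus at least 5.77-fold below TM fruit in TAS14, 6.04-fold in GLB2 and 3.03-fold in gad2. GolS-1, a galactinol synthase, was above background in TM fruit alone, at least 2.62-fold over AV fruit.

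Some of the widest gaps belonged to genes with a locus symbol only, which were also chosen after their values were seen. LOC101246381 had 0.88 in AV fruit, against -1.99 in TM, -2.78 in SK and -1.74 in RJ fruit, a difference of 3.05. LOC778321 had -1.44 in AV fruit, against 3.60 in TM, 1.24 in SK and 3.45 in RJ fruit, a difference of -4.20. LOC100736441 differed by -3.66. LOC100750252 had -2.11 in AV fruit, against 2.27 in TM, -1.4985 in SK and 1.69 in RJ fruit, so that SK fruit lay only 0.61 above AV fruit. Its difference of -2.93 was -2.21 without the TM array and -4.09 without the SK array. Without the SK array LOC778321 and LOC100736441 differed by -4.96 and -4.26. As computed against all 3 fruit, these 4 differences exceeded those of every gene with a name among the 339. Among unnamed probes, A_96_P156766 had the largest difference upward, 3.36, and A_96_P036586 the largest downward, -4.70, at -2.03 in AV fruit, against 3.76 in TM, 1.28 in SK and 2.99 in RJ fruit.

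Several lists held no gene past 2-fold in AV fruit. Over all 339 genes 13.9% were past 2-fold either way, so lists this small can hold none without standing apart from that share. None of the 3 photosynthesis genes measured of 6 passed the 2-fold limit, with a median difference of -0.31. The same held for the 5 measured of 19 auxin and gibberellin genes, with a median of -0.18 and IAA3 furthest at 0.86, and for the 3 measured of 13 cell cycle genes, with a median of -0.28. Among 12 measured of 17 genes of dehydration, transport and respiration only LHA1 passed it, and the median was 0.42. In that list ASR1, an abscisic acid and ripening-induced gene, had 5.20 in AV fruit, against 4.73 in TM, 5.73 in SK and 5.52 in RJ fruit. AOX1a, the alternative oxidase, had 0.49 in AV fruit and 0.68 in SK fruit, with TM fruit lowest at -1.96.

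The whole set of named genes was accounted for as follows. Of 1214 named genes on the array, 339 were measured on all 4 fruit arrays and 719 were above background on no fruit array. A further 34 genes were above background in AV fruit alone and 11 in all 3 other fruit but not in AV fruit. Their bounds were 1.15-fold to 12.4-fold for the 34, with 12 over 2-fold, and 1.20-fold to 28.4-fold for the 11, with 2 over 2-fold. The last 111 were above background on some other set of fruit arrays, and 27 of them had a measured difference of 1 or more upward in AV fruit and 13 downward. Since a gene absent from 1 array failed the filter, the 339 leave out genes as far apart as PG2.

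At the level of probes, 466 were well above background in AV fruit and no other fruit, against 485 for TM, 184 for SK and 81 for RJ fruit. Another 327 were above background in all fruit but AV fruit, and 292 in all fruit but TM fruit.

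AV fruit was nearer to SK and RJ fruit than to TM fruit. Over the 5099 probes Pearson's r was 0.826 with TM, 0.916 with SK and 0.899 with RJ fruit, against 0.878 to 0.945 among the other 3. These are correlations across probes, which share their array, depth and labelling. Against single arrays, 740 probes were 2-fold higher and 478 lower in AV than in TM fruit, which shared its slide. There were 342 and 191 against SK fruit and 303 and 270 against RJ fruit. Among the 362 probes higher in AV fruit, TM fruit was the lowest array in 59.9%, while over all kept probes it was the lowest of the other 3 in 43.6%. Among the 194 lower probes, SK fruit was the nearest array in 73.2%, and over all kept probes it was the lowest of the other 3 in 32.6%. TM fruit was the highest in 75.8% of the 194, against 33.0% over all kept probes.

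The AV leaf array offered a reading of the same accession on other samples. Of the 362 probes higher in AV fruit, 133 were above background on no leaf array (36.7%), against 18 of the 194 lower probes (9.28%) and 776 of all 5099 (15.2%). Where leaf was measured, the fruit direction did not carry over. The 136 higher probes with leaf values had a median AV leaf minus other leaf difference of -0.38, the 124 lower ones 0.60 and all 3079 probes 0.08. Across those 3079 probes the fruit and leaf differences had Pearson's r of -0.23, as a description of these 8 arrays.

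Single genes showed both patterns. Leaf values average the probes of a gene above background on every leaf array, which need not be its fruit probes. AI was higher in AV in both tissues, with -0.36 in AV leaf, against -2.42 in TM, -2.74 in SK and -2.29 in RJ leaf. eIF-5A1, a translation factor, was lowest in AV fruit (difference -0.86) and highest in AV leaf, at 2.90 against -0.74 in TM, -0.57 in SK and 0.11 in RJ leaf. The leaf values rest on 1 of 8 probes for AI and on 1 of 2 for eIF-5A1. AGP-1, an arabinogalactan protein gene, was lowest in AV in both tissues, with differences of -0.99 in fruit and -3.47 in leaf.

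**Figure D5:**
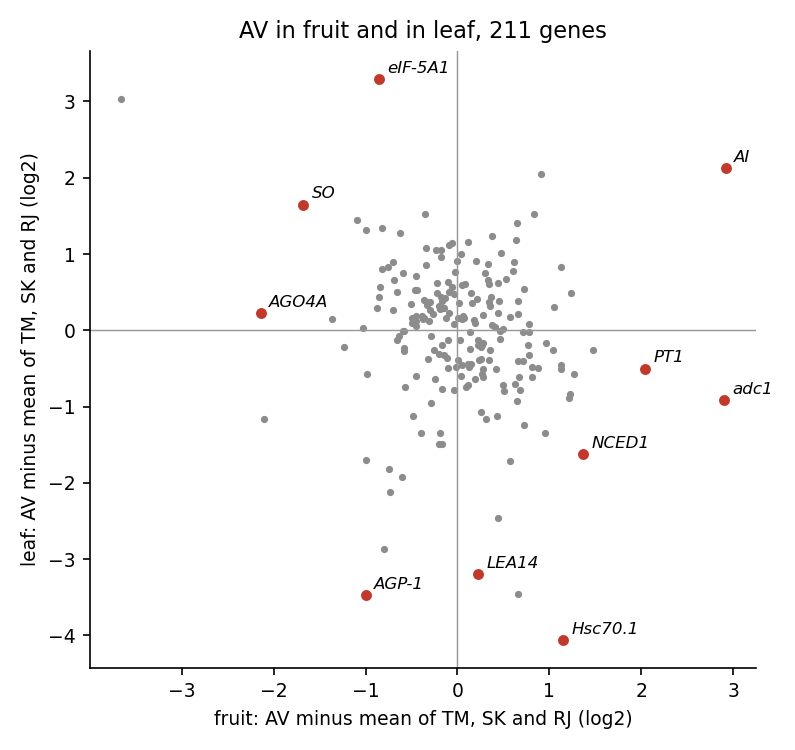
AV minus the mean of TM, SK and RJ in leaf (log2, vertical axis) against the same difference in fruit (log2, horizontal axis), for the 211 kept genes also measured on all leaf arrays. Each point is a gene, and named genes are in red. Values average the probes of a gene above background on all arrays of the tissue, so the probes can differ between tissues. AI lies high in both tissues (2.92 in fruit, 2.12 in leaf), while Hsc70.1 lies at 1.15 in fruit and -4.06 in leaf.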

How the data were processed

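Per the file headers, Agilent Feature Extraction 10.7.3.1 made the deposited intensity of every spot, with flags for outlier spots and for signal well above background. The deposited table of log2 values served as an alternative. In the step made here, outlier spots were dropped, replicate spots averaged, log2 taken of the processed signal, and each array's 75th percentile over 3079 probes (above background on each of 8 arrays) subtracted. Probes labelled as controls were left out. Probes well above background on all 4 fruit arrays were kept. Of 3132 probes with a transcript accession 2936 matched the RefSeq table of the SLM_r2.1 assembly, to 1214 genes, and probes of a gene were averaged. Of 159 genes with several kept probes, 24 had probes of opposite sign.

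A bound sets the bright value against the higher of the dim value and the lowest signal well above background on that array. The background spread of the software counted ordinary probes labelled as controls, 8639 to 8650 spots an array, so that the flag is strict. A further 247 blank columns of the table were not used.

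The members, lists and rules were chosen with earlier results of these data known. Named by rule were the 15 highest and 15 lowest genes with AV fruit outside the range of the others, list members past 2-fold, the 2 furthest of each list, and up to 8 bounded genes each way. Not all genes under the rule are described in the text. Other list members described, such as ETR4, FUL1, ERF6, GGPS2, FRK3, ASR1, AOX1a, ACS1A and PSY2, fell outside the rule and were chosen after their values were seen. Alternatives changed scaling, normalization, background (normexp, limma 3.58.1 in R 4.3.3), source, filter, arrays, slide, fold, outliers and probe. The routines were tested on simulated data. The number of arrays limits the precision.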

Additional observations from a re-analysis of the deposited data

Results flagged for a closer look

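NCED1, Hsc70.1 and SO drew attention because AV stood on opposite sides of all 3 other accessions in fruit and in leaf. NCED1 had a difference of 1.37 in fruit and -1.62 in leaf, with -2.47 in AV leaf against -0.27 in TM, -1.91 in SK and -0.35 in RJ leaf. Hsc70.1 had 1.15 in fruit and -4.06 in leaf, with -2.83 in AV leaf against 1.88 in TM, 0.05 in SK and 1.74 in RJ leaf. SO had -1.68 in fruit and 1.65 in leaf, with 1.47 in AV leaf against 0.24 in TM, -0.70 in SK and -0.07 in RJ leaf. In leaf Hsc70.1 and SO rest on 1 probe each and NCED1 on 2. In fruit Hsc70.1 rests on 1 probe, SO on 4 and NCED1 on 3. With 1 array per accession and tissue the difference between the tissues was not tested.

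The array design labels 8503 ordinary tomato probes as controls, which entered no gene value. Of these, 503 were measured in fruit, and 8.75% of them were at least 2-fold higher in AV fruit and 4.37% at least 2-fold lower. The probes used in the report had 7.1% and 3.8%. They were singled out because signal stood above background in data outside the main measurement.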

How the results depend on the processing

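The counts moved by over 1.5 times with the fold, the filter, the slide and the arrays. A fold of 1.5 gave 961 probes higher and 640 lower, with 79 and 47 genes, and a fold of 4 gave 54 and 19, with 9 and 5 genes. Probes above background on all 8 arrays gave 136 higher and 124 lower, with 15 genes higher, and those above it on at least 1 fruit array gave 940 and 795, with 88 and 33 genes. AV against TM fruit, on the same slide, gave 740 and 478 probes, with 63 and 34 genes. Quantile normalization and the median of the others each gave 20 genes lower. Leaving out 1 other fruit array gave 302 to 468 probes higher and 157 to 337 lower, with 29 to 42 genes higher and 13 to 20 lower. The highest lower counts, 337 probes and 20 genes, came without SK fruit.

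Of 61 named genes past 2-fold, bounded and partly absent ones at their measured values, all kept their sign under every alternative that gave a value, except EFE. EFE was -0.18 with probes above background on at least 1 fruit array, because its opposite probe then entered the mean. Between 52 and 61 of the 61 stayed past 2-fold in the alternatives that measured all of them, with the fewest under normexp and without TM fruit. No paired analysis was possible because each accession and tissue has 1 array and no test was made. Genes not well above background have bounds only, and the strict background flag limits how many genes were measured.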
